A study of Mus musculus with 220 samples.

Results

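Cytosolic sulfotransferases were described in the livers of 220 female F1 mice from 96 maternal strains. The members, chosen by symbol, were Sult3a1, Sult2a2, Sult1e1, Sult1a1, Sult1b1, Sult1c2, Sult1d1 and Sult5a1, which are 8 of the 17097 genes measured. They were read by 9 of 45037 probe sets, since Sult1d1 has 2. The sire of every mouse was C57BL/6J and transgenic for human CETP and ApoE-Leiden, which cause hyperlipidemia, and the dam was of 1 inbred or recombinant inbred strain. All groups therefore share the transgenes and 1 C57BL/6J genome, and the C57BL/6J group is the transgenic strain without an outcross. Feeding was chow up to 8 weeks of age, then Western diet during 16 weeks, with livers taken at 24 weeks. There were 65 mice of 29 classical inbred strains, 83 of 34 BXD, 47 of 21 AXB/BXA, 17 of 8 CXB and 8 of 4 BXH strains. These recombinant inbred panels are mosaics of C57BL/6J with DBA/2J, A/J, BALB/cJ and C3H/HeJ, respectively. Among the BXD strains, BXD24/TyJ-Cep290<rd16>/J (3 mice) carries the rd16 mutation of Cep290 by its name, and was kept with the others. By strain, 9 strains had 1 mouse, 51 had 2, 35 had 3 and 1 had 4.

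Sulfotransferases move a sulfonate group from the donor PAPS (3'-phosphoadenosine 5'-phosphosulfate) to steroids, bile acids, thyroid hormones, phenols, amines and drugs, which makes them more soluble and usually less active. Many of the hepatic enzymes are known to differ between male and female mice. Sult3a1 is an amine sulfotransferase, Sult2a2 belongs to the hydroxysteroid and bile acid class, and Sult1e1 is the estrogen sulfotransferase. Sult1a1 acts on phenols, Sult1b1 on thyroid hormones and phenols, and Sult1d1 on catecholamines and other amines. Sult1b1, Sult1d1 and Sult1e1 are neighbours on chromosome 5. Sult2a2 and Sult1a1 are on chromosome 7, Sult5a1 on chromosome 8, Sult3a1 on chromosome 10 and Sult1c2 on chromosome 17.

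Promoter sequence of 3 members is shown because Sult3a1 and Sult5a1 formed the most closely correlated pair across strains, whereas Sult1e1 was the member least tied to the others. Each run holds the 250 bases before the annotated start in the RefSeq annotation of GRCm38.p6, 5' to 3' along the gene. They are chr10:33857472-33857721 (plus strand), chr8:123158281-123158530 (minus strand) and chr5:87591612-87591861 (minus strand). Capitals mark the STAT element TTCNNNGAA in Sult3a1, and in Sult1e1 the nuclear receptor core site AGGTCA as it reads on the opposite strand.
Sult3a1: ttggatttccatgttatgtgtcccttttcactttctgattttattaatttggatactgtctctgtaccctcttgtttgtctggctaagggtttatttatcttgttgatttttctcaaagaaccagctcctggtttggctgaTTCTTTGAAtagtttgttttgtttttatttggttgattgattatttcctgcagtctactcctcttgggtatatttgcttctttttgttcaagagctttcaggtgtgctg
Sult5a1: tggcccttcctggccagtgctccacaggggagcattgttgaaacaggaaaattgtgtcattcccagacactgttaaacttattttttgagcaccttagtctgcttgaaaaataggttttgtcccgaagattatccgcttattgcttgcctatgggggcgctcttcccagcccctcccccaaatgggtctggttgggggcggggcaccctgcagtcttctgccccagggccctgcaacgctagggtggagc
Sult1e1: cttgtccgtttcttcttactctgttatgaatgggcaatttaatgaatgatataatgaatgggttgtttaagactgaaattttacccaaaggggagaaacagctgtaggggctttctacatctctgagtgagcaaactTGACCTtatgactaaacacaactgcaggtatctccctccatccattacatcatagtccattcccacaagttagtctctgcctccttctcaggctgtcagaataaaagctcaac
Across 8 promoter entries of 7 members, of which Sult1b1 has 2, the STAT element was found only in that of Sult3a1, beginning 109 bases before the start. It occurs in 7.02% of the 32851 mouse promoters of this length. The core site lay in Sult1e1, 113 bases before the start, and in 1 Sult1b1 promoter, against 14% of all promoters. The consensus HNF1 element, found in 0.0609% of promoters, and TATAAA, found in 12.4%, matched none of the 8. All motifs were searched on both strands, and no position overlapped another motif.

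Values are log2 expression after robust multi-array averaging (RMA), so that differences are log2 ratios of signal. Array medians lay between 3.43 and 3.57, and the mean of the median probe set was 3.46. With no detection calls used here, strain means under that value were not shown to exceed background, and differences that end there give no fold of the transcript. Levels of different genes are not compared, since probe sets differ in response. No columns were identical, and the highest correlation between arrays was 0.9966. Of 9 hepatocyte markers 8 were measured, and their summed signal lay between 15.51 and 15.78 on the log2 scale over the strain means. The summed cholangiocyte markers (5 of 6 measured, Krt19 among them) ranged far more, from 5.94 to 9.64, and the summed stellate cell and fibroblast markers (6 of 6) from 12.02 to 13.12. In these bulk livers, fewer cells of a type and less RNA per cell cannot be told apart. The labels name no litter, cage or batch, so p-values of tests on mice measure the spread between mice only. Those of panels and of correlations rest on strain means.

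The first comparison asked how far the sulfotransferases differed with the maternal strain. Sult3a1 had the widest range, from near the floor of the array to a strong signal, and Sult2a2 and Sult1e1 followed. The other 5 members differed between strains over a smaller range. All 8 passed the F-test across the 87 strains with 2 or more mice (limma, adjusted over all probe sets), against 59.2% of all genes.

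Sult3a1 read 10.38 and 10.22 in the 2 mice of SWR/J, the highest strain. It read 9.82 and 9.0 in NOD/ShiLtJ and 8.76 and 9.34 in BXD50/RwwJ. The mice of SWR/J lay above all those of NOD/ShiLtJ, while NOD/ShiLtJ and BXD50/RwwJ overlapped. At the other end stood the single mouse of BXA1/PgnJ at 2.27, C3H/HeJ at 2.05 and 2.51, and BXA14/PgnJ at 2.27, 2.48 and 2.27, which also overlapped. The median strain was at 2.93. The distribution was one-sided: 57 strains lay within 1 unit of the lowest and 2 within 1 unit of the highest, and 60 of 96 were under the mean of the median probe set. The share of variance between strains was 0.796 (adjusted p = 3.12e-30, F-test in limma), and the standard deviation of strain means ranked 6 among 17097 genes. Mice of a strain also differed in this gene, with a pooled SD of 0.99, and CBA/J gave 2.77 and 7.62.

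Sult2a2 read 11.77 in both mice of SWR/J. AXB2/PgnJ, at 11.36, 11.88 and 11.42, overlapped SWR/J. The lowest strains were BXD6/TyJ at 5.11, 5.32 and 5.44 and BXD69/RwwJ at 5.41, 5.54 and 5.04, whose mice also overlapped. The strains were spread more evenly than in Sult3a1: the median was 9.57, 12 strains lay within 1 unit of the highest and 5 within 1 unit of the lowest. The span was 6.48 and the share between strains 0.678 (adjusted p = 1.35e-19, limma), with a rank of 9 among genes in the standard deviation of strain means. Mice of 1 strain could lie far apart, as in BXD55/RwwJ at 5.84, 11.36 and 10.50, and in BXD20/TyJ at 5.56, 9.89, 9.30 and 4.71. Sult2a2 belongs to a cluster of closely related Sult2a genes, and whether its probes read the others was not tested.

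Sult1e1 was highest in MA/MyJ, at 7.89 and 7.18, ahead of SM/J at 6.79 and 7.26, with overlapping mice. It was lowest in BXA1/PgnJ (2.10, n = 1) and C3H/HeJ (2.19 and 2.19). The median strain was at 3.79, and 32 strains were under the mean of the median probe set. The span was 5.44 and the share between strains 0.625 (adjusted p = 2.61e-16, limma). The order of strains was not that of Sult2a2: BXD32/TyJ, with Sult1e1 at 7.14, 7.45 and 5.82, ranked 5 in Sult1e1 and 85 in Sult2a2.

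Sult5a1 ranged from 3.29 in BXA25/PgnJ (n = 1) to 6.08 in BXD55/RwwJ, whose 3 mice read 6.07, 6.12 and 6.07. SWR/J, at 6.01 and 6.05, lay just below them without overlap. The share between strains was 0.644 (adjusted p = 2.28e-17, limma), and 8 strains were under the mean of the median probe set. The 4 remaining members moved within a span of 1.13 to 1.95. Sult1a1 ran from 11.35 ± 0.21 in KK/HlJ to 12.48 ± 0.01 in SWR/J (SD, n = 2 each), and Sult1c2 from 5.85 ± 0.03 to 7.80 ± 0.46 in the same strains. Sult1b1 ran from 6.35 ± 0.36 in BALB/cJ (SD, n = 3) to 7.82 ± 0.39 in BXD50/RwwJ (n = 2). Their shares were 0.558, 0.533 and 0.600. Sult1d1 had the smallest share, 0.362 (adjusted p = 7.82e-06, limma), and its span of 1.33 led from BXD31/TyJ at 9.73 and 9.46 to BXD50/RwwJ at 10.82 and 11.02. Its call was lost without replicate 1 of each strain (adjusted p = 0.129, limma). Its other probe set gave a share of 0.508, from 8.88 in AXB5/PgnJ to 10.35 in CXB13/HiAJ. By comparison, the median share was 0.251 over all genes and 0.423 over genes above the median signal.

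**Figure D1:**
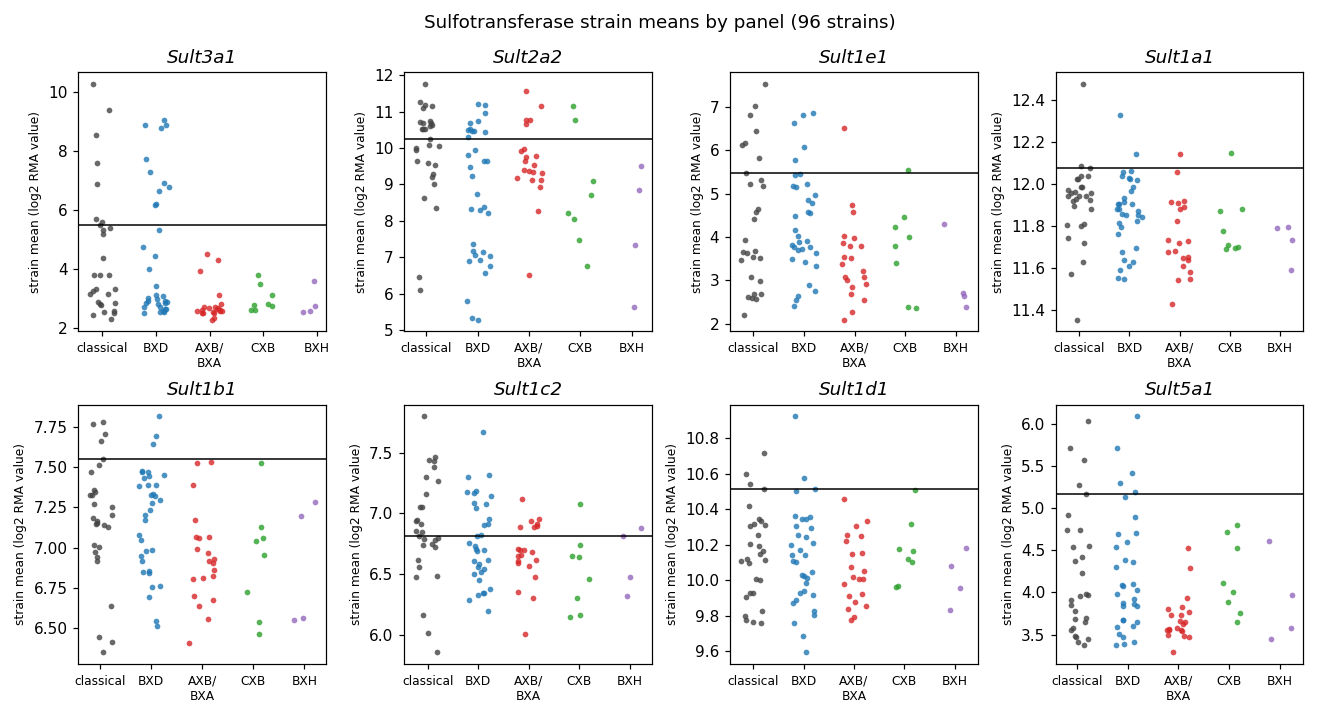
The 8 sulfotransferases by panel as log2 RMA values (vertical axis), 1 point per mean of a maternal strain, with the C57BL/6J mean as a horizontal line. Sult3a1 is piled at the bottom with 60 strains under the mean of the median probe set, whereas Sult2a2 is spread between 5.29 and 11.77.

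Some strains stood at the same end for many members. SWR/J was among the 10 highest strains for 8 of 8 members and BXD50/RwwJ for 6. KK/HlJ was among the 10 lowest for 6 members, and read 2.42 in Sult3a1 and 6.11 in Sult2a2. The summed cholangiocyte markers were at 6.59 in SWR/J against 7.29 in C57BL/6J, and the stellate cell and fibroblast sum at 12.18 against 12.72. The endothelial sum of SWR/J, at 10.82 against 10.22, was the highest of all strains. PL/J, with 1 mouse, was among the 10 highest for 5 members but ranked 53 in Sult3a1 and 61 in Sult5a1.

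The next comparison set the progenitors of the recombinant inbred panels against C57BL/6J. Sult3a1 and Sult5a1 were lower in A/J, BALB/cJ and C3H/HeJ, Sult1b1 and Sult1e1 were lower in BALB/cJ and C3H/HeJ, and Sult1a1 was lower in C3H/HeJ. No member was called higher in any of them, and none was called in DBA/2J. These 4 contrasts share the 2 mice of C57BL/6J, and the fit used all 220 mice with 1 mean per strain (limma, 124 residual degrees of freedom). The median difference over all genes was at most 0.011.

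In single mice, Sult3a1 read 6.68 and 4.29 in C57BL/6J. It read 2.80, 2.46 and 2.44 in A/J, 2.41, 2.33 and 2.72 in BALB/cJ, and 2.05 and 2.51 in C3H/HeJ. Those 3 groups lay entirely below C57BL/6J, whereas DBA/2J, at 8.36, 3.32 and 4.45, overlapped it on both sides. The SD of Sult3a1 was 1.69 in C57BL/6J and 2.64 in DBA/2J but 0.203 in A/J, while the fit uses 1 spread pooled over all strains (SD 0.99). The SE and p-values of the Sult3a1 contrasts therefore understate the spread between mice in C57BL/6J and DBA/2J. Sult5a1 read 5.54 and 4.79 in C57BL/6J, against 3.75, 3.36 and 3.30 in A/J and 3.83, 3.64 and 4.27 in DBA/2J. BALB/cJ gave 3.43, 3.22 and 3.58 and C3H/HeJ 3.46 and 3.51, so that C57BL/6J was above every mouse of the other 4 strains. The Sult5a1 means of A/J, BALB/cJ and C3H/HeJ, at 3.47, 3.41 and 3.49, lay about at the mean of the median probe set (3.46).

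In A/J, 2 of 8 members fell, against 4.61% of genes called lower. Sult3a1 fell by 2.92 (SE 0.88, adjusted p = 0.0223, limma) and Sult5a1 by 1.69 (SE 0.40, 0.00215). Without C57BL/6J mouse 1 they were at -1.72 (adjusted p = 0.624) and -1.32 (0.193), and Sult3a1 was also not called without A/J mouse 2 (0.0633) or mouse 3 (0.0603), or when only the progenitors were fitted (0.101). The probe sets of Sult1d1 disagreed: the brighter was at -0.59 (adjusted p = 0.0782) and the other at -0.83 (0.00882). Sult2a2 did not follow this pattern, at 10.82, 10.60 and 10.80 in A/J against 9.94 and 10.57 in C57BL/6J (difference 0.48, SE 0.91).

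In BALB/cJ, 4 of 8 members fell, against 4.2% of genes. Sult1b1 read 5.93, 6.56 and 6.55 against 7.76 and 7.34 in C57BL/6J, and fell by 1.20 (SE 0.22, adjusted p = 6.34e-05, limma), a call that held without any single mouse and in the other settings tried. Sult1e1 read 3.05, 2.46 and 2.29 against 4.80 and 6.12, and fell by 2.86 (SE 0.80, 0.0121). Sult3a1 fell by 3.0 (SE 0.88, 0.0195) and Sult5a1 by 1.75 (SE 0.40, 0.00151). Sult1e1 was at -2.20 (0.235) without C57BL/6J mouse 2. Omission of mouse 1 gave -1.80 (0.582) in Sult3a1 and -1.38 (0.162) in Sult5a1. Leaving out BALB/cJ mouse 1 or 2 put Sult3a1 at an adjusted p of 0.0537 or 0.0573, and fitting only the progenitors at 0.0948.

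In C3H/HeJ, 5 of 8 members fell, against 3.15% of genes. Sult1e1 read 2.19 in both mice and fell by 3.27 (SE 0.87, adjusted p = 0.00989, limma), and Sult3a1 fell by 3.21 (SE 0.97, 0.0271). Sult5a1 fell by 1.68 (SE 0.44, 0.00854). Sult1b1, at 6.40 and 6.48, fell by 1.11 (SE 0.25, 0.00122), and Sult1a1, at 11.61 and 11.65 against 12.08 and 12.07, fell by 0.45 (SE 0.14, 0.0455). With 2 mice in each group, leaving out 1 mouse left 1 to 3 of the 5 calls, and each call was lost in at least 1 such fit. The call of Sult1a1 was lost when any 1 of the 4 mice was left out (adjusted p from 0.129 to 0.276), and that of Sult1b1 without C57BL/6J mouse 1 (0.129). The same omission put Sult3a1 at -2.01 (0.607) and Sult5a1 at -1.30 (0.294). Without C3H/HeJ mouse 1 or 2, the adjusted p was 0.218 or 0.099 in Sult3a1, 0.0948 or 0.0755 in Sult1e1, and 0.0948 or 0.0626 in Sult5a1. Sult1e1 was also not called without C57BL/6J mouse 2 (0.151), nor Sult3a1 when only the progenitors were fitted (0.111). The second probe set of Sult1d1 was at -0.91 (0.0101), the brighter at -0.69 (0.0627). Sult2a2 was at 8.44 and 8.26, a difference of -1.91 (SE 1.00, 0.308), called only in the progenitor fit (0.0459).

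In DBA/2J, 0 of 8 members passed at an adjusted p under 0.05 (limma), against 2.1% of genes in either direction, and 2 had an unadjusted p under 0.05. These were Sult5a1, at -1.25 (SE 0.40, adjusted p = 0.0925), and Sult1c2, at 0.63 (SE 0.26, 0.296). Fitted on the progenitors only, Sult5a1 was called (0.00809). A contrast that does not use C57BL/6J, A/J minus DBA/2J, gave 2 members lower, against 4.52% of genes. Sult3a1 was lower by 2.81 units in A/J (SE 0.79, adjusted p = 0.0124, limma) and Sult1e1, at 4.25, 3.22 and 3.11 against 7.10, 4.52 and 5.83, by 2.29 units (SE 0.71, 0.0286). Without DBA/2J mouse 1 they were at -1.32 (0.519) and -1.65 (0.302). Both calls were also lost without A/J mouse 2 (0.0511 and 0.116), that of Sult1e1 without A/J mouse 3 (0.12) or DBA/2J mouse 3 (0.0774), and that of Sult3a1 when only the progenitors were fitted (0.0785). The summed cholangiocyte markers moved with these contrasts, at 7.29 in C57BL/6J, 7.06 in DBA/2J, 7.92 in A/J, 8.75 in BALB/cJ and 9.10 in C3H/HeJ. Of the 5 markers, 1 was called higher in BALB/cJ and 4 in C3H/HeJ, against 5.52% and 5.38% of genes. The summed endothelial markers were highest in C57BL/6J, at 10.22, against 9.67 in A/J, 9.98 in DBA/2J, 9.40 in BALB/cJ and 9.59 in C3H/HeJ. In these 4 strains, 2, 1, 5 and 1 of the 6 markers were called lower, against 4.61%, 0.983%, 4.2% and 3.15% of genes. The stellate cell marker Lrat, named after its values were seen, was called lower in all 4 strains, at -1.17 in A/J, -0.75 in DBA/2J and -1.19 in BALB/cJ and C3H/HeJ. It was the only 1 of the 6 stellate cell and fibroblast markers called lower. Col1a1 was called higher in C3H/HeJ (1.52, adjusted p = 0.0188, limma). The sum of the 6 was at 12.72 in C57BL/6J, 12.95 in A/J, 12.66 in DBA/2J, 12.94 in BALB/cJ and 12.99 in C3H/HeJ. The part of these cell types in the sulfotransferase differences was not tested.

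**Figure D2:**
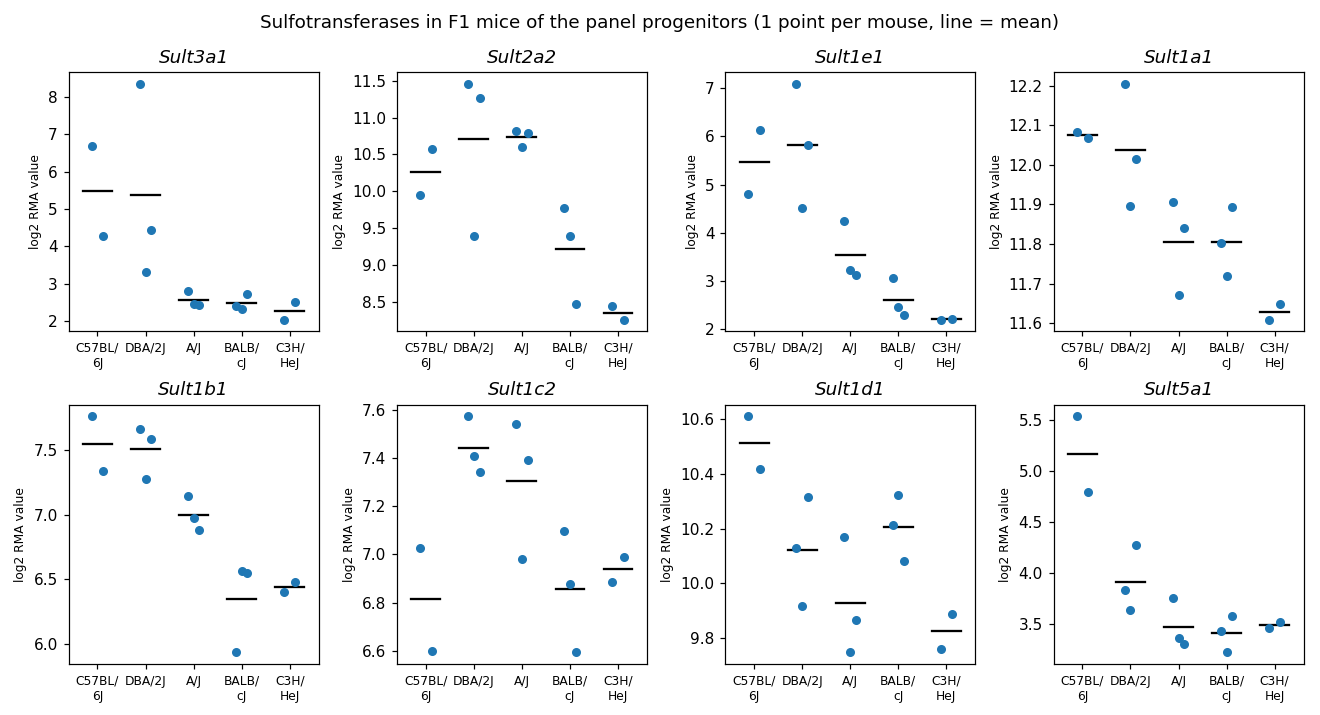
The 8 sulfotransferases in F1 mice of the 5 progenitor strains, with 1 point per mouse (log2 RMA value, vertical axis, own scale per gene) and the strain mean as a line. For Sult5a1 both C57BL/6J mice, at 5.54 and 4.79, lie above all mice of the other strains, and for Sult3a1 the mice of A/J, BALB/cJ and C3H/HeJ lie under 3.

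The panels were compared next, with the strain as the unit. Sult3a1 was higher among BXD than among AXB/BXA strains: in BXD the lowest, median and highest strain means were 2.50, 3.09 and 9.05, and in AXB/BXA 2.27, 2.60 and 4.50. The panels overlapped, but 13 BXD strains had a mean above that of every AXB/BXA strain. Both medians were under the mean of the median probe set (3.46), so the difference lay in the BXD strains of high signal. The F-test across 5 panels called Sult3a1 alone of the 8 (adjusted p = 0.0406, limma on strain means), against 8.72% of genes, and did not without the strains of 1 mouse (0.0644). Sult2a2 was at 0.0546 there, and at 0.0329 to 0.0424 in 3 of the alternatives. AXB/BXA minus BXD gave 2 of 8 members lower, against 4.33% of genes. Sult3a1 differed by -1.73 (SE 0.51, adjusted p = 0.0243, limma) and Sult5a1 by -0.55 (SE 0.17, 0.0374). The latter was not called without strains of 1 mouse (0.0638) or with AXB19/PgnJ, AXB19a/PgnJ and AXB19b/PgnJ averaged (0.0548). Sult2a2 pointed the other way, with a mean of 9.62 ± 1.07 in AXB/BXA (SD, n = 21) and 8.72 ± 1.81 in BXD (n = 34), a difference of 0.90 (SE 0.41, adjusted p = 0.166).

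Within a panel, strains carry mosaics of only the parental pair, apart from the Cep290 mutation of 1 BXD strain. All 8 members differed among the 31 BXD strains with replicates, against 42.2% of genes, and 6 of 8 among the 18 AXB/BXA strains, against 29% of genes. Sult3a1 led in BXD with a share of 0.809 (adjusted p = 1.94e-13, F-test in limma), followed by Sult5a1 at 0.695. In AXB/BXA the leader was Sult2a2, with a share of 0.772 (6.17e-07), and Sult3a1 had a share of 0.338 (0.0346). Sult1d1 (0.132) and Sult1c2 (0.0523) were not called in AXB/BXA, although the other probe set of Sult1d1 was (share 0.563, adjusted p = 0.00129). Sult1c2 was called there with dim probe sets left out (0.039), with arrays centred on their median (0.0493) and with trend and robust options (0.0498). No member was called in CXB, against 1.95% of genes, or in BXH, against 1.75%, with 9 and 4 residual degrees of freedom. Leaving out replicate 1 of each strain left every strain of 2 mice with 1. Sult1e1, Sult1a1 and Sult1d1 were then not called in BXD, nor Sult1e1, Sult1a1 and Sult1b1 in AXB/BXA. In CXB only CXB7/ByJ and CXB8/HiAJ kept more than 1 mouse in that fit. The calls gained there, in Sult3a1, Sult2a2, Sult1c2 and Sult5a1, therefore rest on the spread in those strains alone. The share of all genes called in these fits is not given. In AXB/BXA, Sult3a1 was not called without replicate 3 (0.240) or with trend and robust options (0.107).

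The strains of a panel were set against the means of its progenitors as a description. For Sult3a1, C57BL/6J (5.49) and DBA/2J (5.38) lay only 0.11 apart, so that hardly any strain could fall between them, and 11 of 34 BXD strains were above both and 23 below. By more than 2 pooled SD, 5 were above and 18 below. The latter count was 0 without DBA/2J mouse 1 or without C57BL/6J mouse 1, whereas 4 or 5 strains were above by that margin whichever progenitor mouse was left out. For Sult2a2, 23 BXD strains were below both DBA/2J (10.71) and C57BL/6J (10.26), 12 of them by more than 2 SD (12 to 16 with any 1 progenitor mouse left out), while 0 were above by that margin. In AXB/BXA, 13 of 21 strains were between the progenitors in Sult3a1 and 19 in Sult5a1. The lower progenitor, A/J, was at 2.57 and 3.47, under or about at the mean of the median probe set. These counts therefore do not show intermediate expression. BXA4/PgnJ was the 1 AXB/BXA strain below both progenitors of Sult2a2 by more than 2 SD, at a mean of 6.52.

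**Figure D3:**
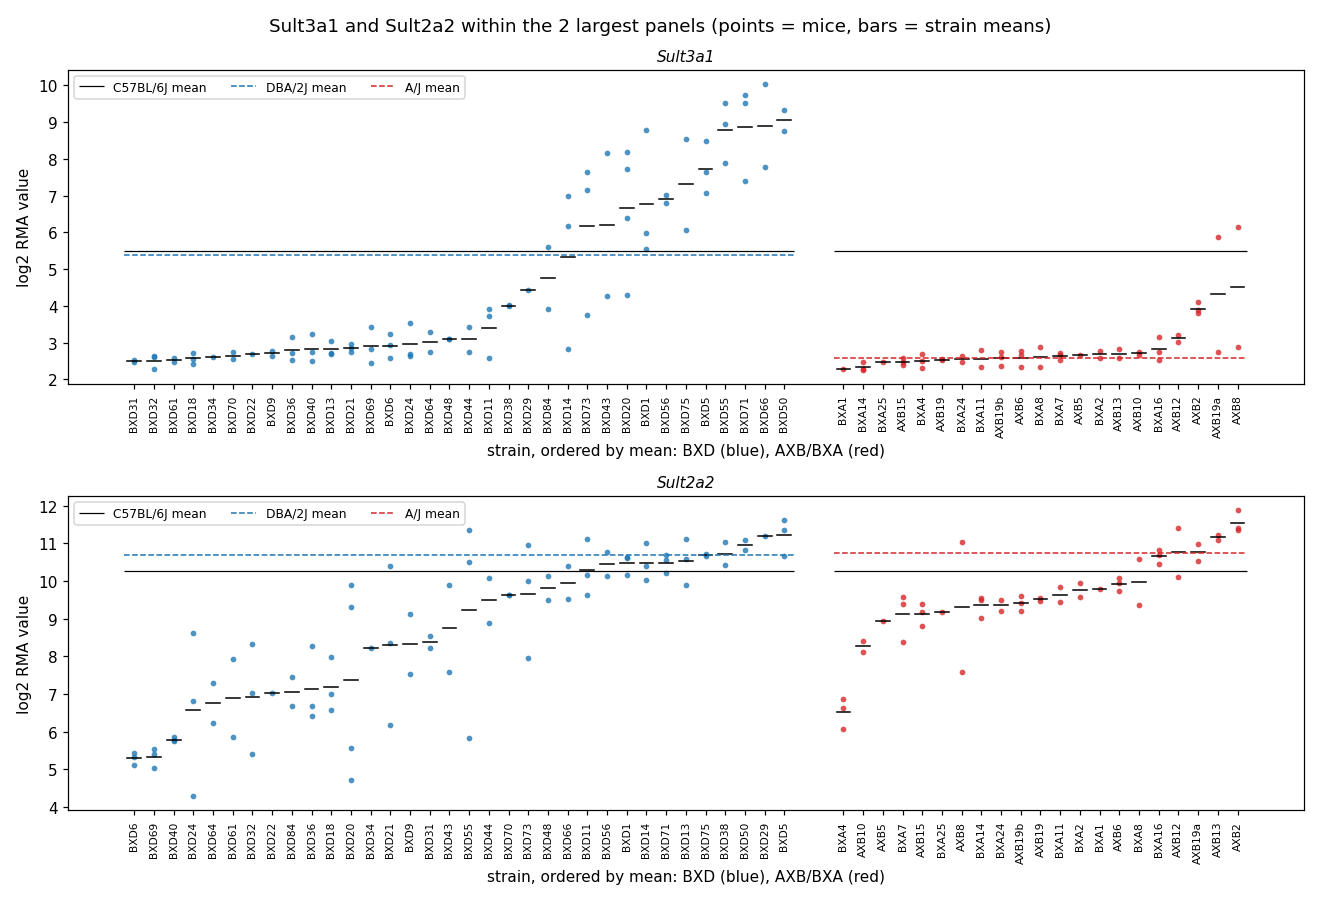
Sult3a1 (top) and Sult2a2 (bottom) in the BXD (blue) and AXB/BXA (red) strains ordered by mean, with points for mice, black bars for strain means and lines for the C57BL/6J, DBA/2J and A/J means (log2 RMA value, vertical axis). BXD strains lie on both sides of their progenitors in Sult3a1, and 23 of 34 lie below them in Sult2a2.

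The sulfotransferases varied together across strains. All 28 pairs had a positive correlation of strain means (n = 96), with a median r of 0.58 and a range from 0.21 to 0.76, and 18 pairs reached 0.5. Over all genes measured, 49.7 to 56% had a positive r with a given member, and the median absolute r was 0.12 to 0.22. The highest was Sult3a1 with Sult5a1 (r = 0.76, rho = 0.73), and the lowest Sult2a2 with Sult1e1 (r = 0.21, rho = 0.23). All 28 pairs passed by r and by rho (permutation test with 100000 draws, two-sided, adjusted over 28 pairs). For Sult3a1 with Sult5a1 the p was 1e-05 for both, the smallest the draws can give (adjusted 1.56e-05), and for Sult2a2 with Sult1e1 the permutation p was 0.0375 by r and 0.024 by rho, also after adjustment. Strains of a panel share progenitors, so they are not fully independent. Without the 2 strains farthest from the median, r was 0.75 for the first pair (without SWR/J and NOD/ShiLtJ) and 0.21 for the last.

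Within panels, the median r was 0.66 in BXD, 0.57 in the classical strains, 0.46 in AXB/BXA and 0.57 in CXB, and 23 of 28 pairs were positive in all 4. Sult3a1 and Sult5a1 gave 0.84 in BXD, 0.71 in classical strains and 0.88 in CXB, but 0.01 in AXB/BXA. The highest Sult3a1 strain mean was only 4.50 in AXB/BXA and 3.77 in CXB. The medians, at 2.60 and 2.77, were under the mean of the median probe set. There r rests largely on Sult3a1 values not shown to exceed background. In the 8 CXB strains the share between strains was 0 for both genes. Sult1e1 again stood apart: its r with the 7 other members lay between -0.25 and 0.22 in BXD and between 0.45 and 0.63 in the classical strains. Mice of a strain varied together too. Over the deviations of single mice from their strain mean, all 28 r were positive, with a median of 0.34 and a range from 0.16 (Sult1a1 with Sult5a1) to 0.61 (Sult1a1 with Sult1c2).

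The summed cholangiocyte markers and the summed stellate cell and fibroblast markers ran opposite to the members. The cholangiocyte sum had r from -0.39 (Sult1e1) to -0.71 (Sult5a1), and the stellate cell and fibroblast sum from -0.39 (Sult1e1) to -0.78 (Sult3a1). Single genes of the latter list split. Dcn, Col1a1, Col3a1 and Pdgfrb had negative r with every member, while Lrat had r from 0.09 to 0.41 and Reln from -0.13 to 0.08. The summed hepatocyte markers had r from 0.27 to 0.67 and the summed endothelial markers from 0.21 to 0.53. Sums of neutrophil markers lay between -0.46 and -0.15, of Kupffer cell and macrophage markers between -0.23 and 0.13, and of T and B cell markers between 0 and 0.20. Single Kupffer cell and macrophage markers went both ways, with 3 of 7 positive with Sult3a1. Over the members, Clec4f had r from 0.22 to 0.55 and Cd68 from -0.62 to -0.21. With the cholangiocyte and stellate cell sums taken out of the strain means, the median r between members was 0.18, from -0.14 to 0.48, 25 of 28 pairs were positive and 11 were called by permutation. Sult3a1 with Sult5a1 went from 0.76 to 0.48 (permutation p adjusted 7e-05), while Sult3a1 with Sult2a2 went from 0.41 to 0.04 (0.793). Of the 11 pairs still called, 9 were among Sult2a2, Sult1a1, Sult1b1, Sult1c2 and Sult1d1.

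**Figure D4:**
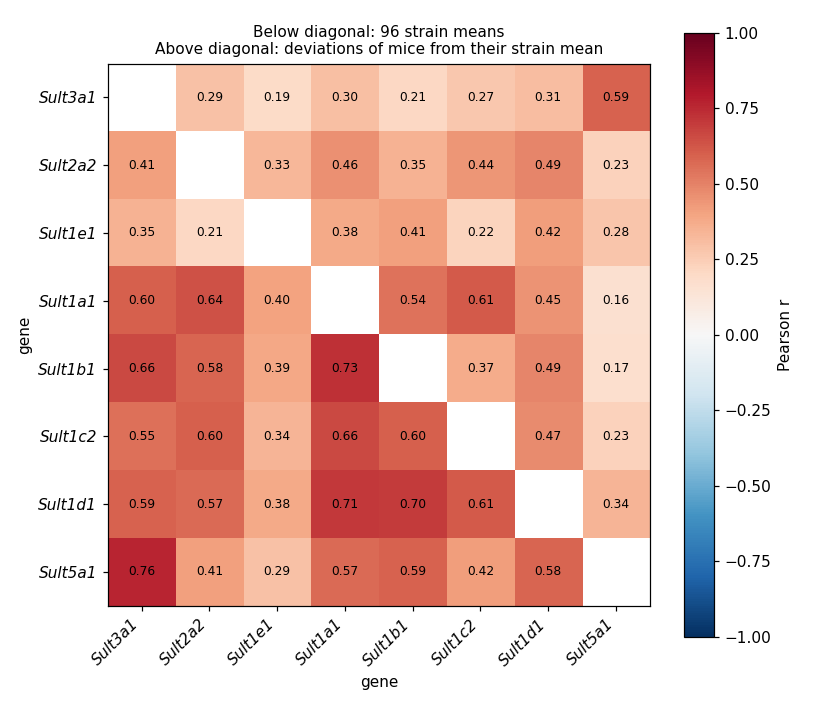
Pearson r between the 8 sulfotransferases over 96 strain means (below the diagonal) and over deviations of single mice from their strain mean (above the diagonal), coloured from -1 (blue) to 1 (red). Every cell is positive, and the row and column of Sult1e1 are the palest below the diagonal, at 0.21 to 0.40.

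The genes outside the family most like each member were sought among 10465 genes above the median signal, as a description over 96 strain means. Sult3a1 was followed most closely by Anxa5, which encodes a phospholipid-binding annexin (r = -0.82), Cnmd (0.82) and Ccdc3 (-0.82). Anxa5 was also the closest to Sult5a1 (-0.81), ahead of the galectin Lgals1 (-0.80) and the ubiquitin-like Ubd (-0.79). For Sult2a2 they were the transporter Slc22a26 (0.72), Papss2 (0.70) and the complement gene C6 (-0.70). Papss2 makes PAPS, the donor that sulfotransferases use, and its r with Sult2a2 was 0.85 in BXD, 0.59 in classical strains and 0.51 in AXB/BXA. Papss1, which also makes PAPS, had r of -0.36 with Sult2a2 over the 96 strains. Sult1a1 was most like Slc22a26, the nucleoside transporter Slc29a1 and Echdc3 (all 0.81). The closest to Sult1b1 were Vipr1 (0.81), Fat1 (-0.81) and the glucuronosyltransferase Ugt2a3 (0.81), and to Sult1d1 Dbt (0.81), Myo9b (-0.78) and Tspan12 (0.77). Those of Sult1c2 were Flna (-0.73), Car1 (0.72) and Hao2 (0.72). No gene came as close to Sult1e1, for which Amy1 (0.55), Pcca (0.52) and Dpt (-0.51) led and only 7 genes reached an absolute r of 0.5, against 442 for Sult2a2 and 2495 for Sult3a1.

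**Figure D5:**
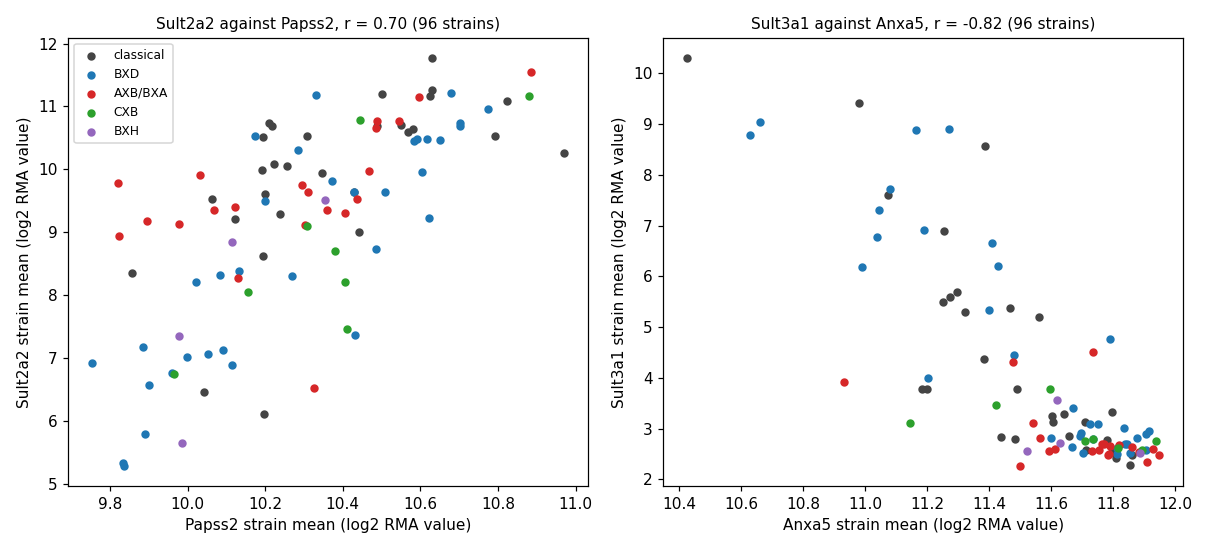
Strain means (log2 RMA value) of Sult2a2 against Papss2 (left, r = 0.70) and of Sult3a1 against Anxa5 (right, r = -0.82), 1 point per strain coloured by panel. The highest Sult3a1 means lie at the lowest Anxa5 means, with a dense group of strains low in Sult3a1 and high in Anxa5.

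Genes that supply sulfate and its donor were examined as a list, of which 14 of 18 were measured. Of these, 10 passed the F-test across strains, against 59.2% of genes, with a median share of 0.404. Papss2 ran from 9.75 in BXD32/TyJ to 10.97 in C57BL/6J. It fell by 0.76 in A/J, 0.85 in BALB/cJ and 1.11 in C3H/HeJ (adjusted p = 0.00181, 0.000443 and 2.21e-05, limma), and was at -0.42 in DBA/2J (0.306). Sulfite oxidase (Suox) was lowest in KK/HlJ (7.33) and highest in SWR/J (8.67), with r of 0.57 with Sult3a1 and 0.69 with Sult1a1. Arylsulfatase A (Arsa), a lysosomal enzyme that removes sulfate, ran opposite, from 7.18 in BXD50/RwwJ to 9.36 in BXD36/TyJ, with r of -0.70 with Sult3a1, -0.66 with Sult2a2 and -0.73 with Sult1a1. The median r of the list with the members lay between 0.105 and 0.165, beside 0 to 0.05 over all genes.

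Of 15 further sulfotransferase genes listed, 7 were measured and 4 passed the F-test across strains, against 59.2% of all genes. Their median share was 0.26. Sult2a8, of the hydroxysteroid class, ran from 7.84 in BXA14/PgnJ to 11.10 in SM/J with a share of 0.686, and had r of 0.74 with Sult3a1 and 0.43 with Sult2a2. The tyrosylprotein sulfotransferases Tpst1 and Tpst2, Golgi enzymes that act on proteins, had r between -0.19 and 0.34 with the members.

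Female-biased liver genes, another list, passed the F-test in 13 of the 13 measured, against 59.2% of all genes, with a median share of 0.606. Their median r was 0.69 with Sult1a1, 0.52 with Sult3a1 and Sult2a2, and 0.26 with Sult1e1. The P450 gene Cyp2b13 ran from 4.24 in KK/HlJ to 10.28 in NOD/ShiLtJ, and Cyp2b9 from 8.05 in KK/HlJ to 11.30 in SWR/J, with r of 0.70 with Sult2a2. Male-biased liver genes passed in 15 of the 17 measured (median share 0.464). Their median r with the members lay between -0.03 and 0.16, and single genes went both ways. With Sult3a1 the transporter Slco1a1 had r of 0.55 and the elongase Elovl3 of 0.74, the highest of the list, while the lowest was -0.82 in the glutathione transferase Gstp1. With Sult2a2, C6 was at -0.70 and the P450 gene Cyp4a12a at -0.59; these and Gstp1 were named after their values were seen. All mice were female, so no difference between the sexes was measured.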

How the data were processed

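Total RNA from the left lobe of the liver of female mice was hybridized to Affymetrix HT-MG_430 PM arrays (the labels give HT_MG-430A). The deposited values are log2 expression of each probe set, which the authors made with GCOS and RMA per the labels. Arrays carry no read depth, and the number of mice limits the precision. Of 45141 probe sets 104 controls were left out. The platform annotation gave 1 symbol to 28898, several to 551 and none to 15588. The probe set of highest mean led for a gene. Strains came from the labels, and replicate numbers follow accession order.

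Tests used limma 3.58.1 in R 4.3.3 on all probe sets with Benjamini-Hochberg adjustment, called at 0.05: an F-test across strains, progenitor contrasts, panels on strain means and strains within panels. The share between strains is a one-way random-effects estimate. Correlations of strain means used permutations, and scripts were tested on simulated data. Named genes were the members, the 3 genes most like each and up to 3 per list by share. The members and lists were chosen with earlier results of these data known. Alternatives were the mean of probe sets, a filter on dim probe sets, centred arrays, trend and robust options, weights, single mice left out, progenitors alone, strains with 2 or more mice, and biweight midcorrelation; adjustment for cell markers was added after seeing the data.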

Additional observations from a re-analysis of the deposited data

Results flagged for a closer look

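Dixon's test was applied to 24 groups of 4 to 10 values, and chance flags about 1 in 20 of them; 3 were flagged. Among the 4 mice of BXD20/TyJ, mouse 1 was lowest in Sult1a1, at 11.71 with the nearest mouse at 11.88. The phenol sulfotransferase was also flagged as highest of the CXB strains in CXB13/HiAJ, at a mean of 12.15 against 11.88 in the nearest strain. It was not called among CXB strains (adjusted p = 0.574, F-test in limma). The estrogen sulfotransferase Sult1e1 was flagged as highest in BXH19/TyJ, at a mean of 4.30 against 2.70 in the nearest of the 4 BXH strains. Sult1e1 was not called among BXH strains (adjusted p = 0.117, F-test in limma).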

How the results depend on the processing

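No paired analysis was possible because replicate numbers follow accession order and name no shared litter, cage or day. The count of members called across strains was 7 to 8 with 1 replicate of each strain left out. Leaving out 1 mouse of a contrast gave 0 to 2 called members in A/J, 0 in DBA/2J, 2 to 4 in BALB/cJ and 1 to 3 in C3H/HeJ, each minus C57BL/6J, and 0 to 2 in A/J minus DBA/2J. Leaving out 1 replicate of each strain gave 5 to 8 in BXD, 3 to 5 in AXB/BXA and 0 to 4 in CXB. BXH could not be fitted without replicate 1 or 2. A fit of the progenitors alone called 1 member in DBA/2J and 1 in A/J minus DBA/2J. Sult1d1 gained a call in A/J and C3H/HeJ with the mean of its probe sets (adjusted p = 0.0153 and 0.0134, limma), with dim probe sets left out (0.0442 and 0.0369) and in the fit of the progenitors (0.0208 and 0.0177). The panel F-test called 2 members with the mean of probe sets, with dim probe sets left out or with weights, and 0 with strains of 2 or more mice. AXB/BXA minus BXD called 1 with those strains and 1 with the AXB19 strains averaged. Biweight midcorrelation left 26 of 28 pairs called, without Sult3a1 with Sult1c2 (0.20) and Sult2a2 with Sult1e1 (0.19). Adjustment for cholangiocyte and stellate cell markers left 11, and turned Sult1e1 with Sult5a1 to -0.02 and Sult1c2 with Sult5a1 to -0.14, neither called. Settings that leave mice out test fewer mice, and the cause was not tested for the other shifts. Strains with 2 mice, C57BL/6J among them, and strain means near background in Sult3a1, Sult1e1 and Sult5a1 limit these values. The counts of BXD strains outside the progenitor means without 1 progenitor mouse were added after seeing the data.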

Other observations

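The lists not described above concern receptors, their targets, inflammation and steroid handling, and values are given with no explanation. Steroid and bile acid genes passed the F-test across strains in 16 of the 16 measured (median share 0.534), against 59.2% of all genes. The bile acid ligase Slc27a5 had r of 0.73 with Sult3a1 and 0.76 with Sult1a1, and the steroid reductase Akr1d1 0.69 and 0.79. Both were highest in SWR/J, at 12.15 and 10.19. Hsd17b13, a lipid droplet protein, had r of -0.04 and 0.13 with the same members. Of 19 nuclear receptors and liver transcription factors measured, 17 passed (median share 0.479). Nr1i3, the xenobiotic receptor CAR, ran from 7.60 in AXB19/PgnJ to 9.45 in BXD50/RwwJ with r of 0.56 with Sult3a1, and Ppara, the fatty acid receptor, had 0.60. Nfe2l2, the regulator of the antioxidant response, had -0.17.

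Targets of CAR and PXR passed in 14 of the 14 measured, against 59.2% of all genes. Their median r was 0.06 with Sult3a1 and 0.07 with Sult2a2. The glutathione transferase Gstt1 (0.67 with Sult3a1) and the transporter Slco1a4 (0.68 with Sult2a2) were well above that median, and Cyp3a13 was at 0.17 with Sult3a1. The list went both ways with Sult3a1, with 8 r above 0 and 6 below, and the lowest were the glutathione transferases Gsta2 (-0.79) and Gstm3 (-0.75), named after their values were seen. Acute phase genes passed in 14 of the 15 measured, with a median r of -0.28 with Sult3a1. The iron carrier Lcn2 had -0.75, the pentraxin Apcs -0.14 and fibrinogen Fga 0.24. Susd4, in the male-biased list, had r of 0.09 with Sult3a1.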
